A study of Arabidopsis thaliana with 8 samples.

Results

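The complementation line *HOT3-EYFP* was compared with *hot3-2*, the mutant into which the transgene had been introduced, to see which small RNAs (sRNAs) a working copy of *HOT3* brought back. The comparison used 2 libraries of *HOT3-EYFP* and 2 of *hot3-2*, which are 4 of the 8 libraries of the series. All 100-bp windows of the genome that reached 10 counts in 2 or more of the libraries at a given sRNA length were taken, and each length from 18 nt to 26 nt was analysed on its own. At 1 length or more 28399 of 1196681 windows passed, made up of 27438 nuclear windows outside rDNA, 141 windows of rDNA, 659 chloroplast windows and 161 mitochondrial windows.

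All plants were *Arabidopsis thaliana* seedlings of the Col-0 accession, sampled at 18 days after growth at 23 °C (labels) with 16 h of light and 8 h of dark. *HOT3-EYFP* carries a genomic fragment of *HOT3* with the gene's own promoter, fused to the fluorescent protein EYFP, in plants that are also mutant for *hot3-2*. *hot3-2* and *hot3-3* are lines with T-DNA insertions in *HOT3* (SALK_124251 and SAIL_1147_G06), and WT is Col-0 without an insertion or transgene. *HOT3-EYFP* therefore shares the *hot3-2* insertion with its comparison group, and 1 transgenic line stands for the rescue. The *HOT3-EYFP* libraries held 8210328 and 7026808 counts, the *hot3-2* libraries 7008968 and 7435162, the *hot3-3* libraries 7576805 and 7783291, and the WT libraries 6793502 and 7247099. The labels do not say whether replicates were grown separately, so the p-values measure the spread between these samples, which may be technical. Whole seedlings were sampled, in which fewer cells of a type and less RNA per cell cannot be told apart.

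*HOT3* encodes eIF5B1, a GTPase that helps the ribosomal subunits join at the start of translation and is also needed for the last steps of 18S rRNA maturation. Plant sRNAs are cut from double-stranded or hairpin precursors by Dicer-like enzymes. DCL1 makes miRNAs, DCL4 makes 21-nt siRNAs, DCL2 makes 22-nt siRNAs and DCL3 makes the 24-nt siRNAs that guide DNA methylation at transposons. Trans-acting siRNAs (tasiRNAs) arise at *TAS* loci when a miRNA cuts the *TAS* transcript and RDR6 copies the fragment. rRNA-derived siRNAs (risiRNAs) arise when rRNA or its precursors enter the same machinery, and fragments of mature rRNA and tRNA are also found among sRNAs.

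Mature miRNAs of some loci of the comparison are shown first, as annotated by RefSeq on the TAIR10.1 assembly. They are written 5′ to 3′, with the seed (bases 2 to 8) in capitals. Calls were made for a locus at a given length, which was not always the length of the mature miRNA. The first group comes from loci whose sRNAs were lower in *HOT3-EYFP* than in *hot3-2* at 1 length or more. *MIR161* was called at 20 nt and not at 21 nt, the length of miR161.1. *MIR173* was called at 21 nt. At 22 nt, the length of miR173-5p, no locus of a *TAS* trigger was called. The seeds of miR845a and miR845b differ from each other and from all other annotated seeds, and miR173-5p is the trigger of the *TAS1* and *TAS2* tasiRNAs.
miR845a: cGGCUCUGauaccaauugaug
miR845b: uCGCUCUGauaccaaauugaug
miR843: uUUAGGUCgagcuucauugga
miR158a-3p: uCCCAAAUguagacaaagca
miR161.1: uGAAAGUGacuacaucggggu
miR173-5p: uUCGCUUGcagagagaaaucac

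The second group comes from loci whose 21-nt sRNAs were higher in *HOT3-EYFP* than in *hot3-2*. At 24 nt, the length of the mature miR163, *MIR163* was not called.
miR163: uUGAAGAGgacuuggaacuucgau
miR827: uUAGAUGAccaucaacaaacu
miR159b-3p: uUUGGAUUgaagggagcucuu

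The third group stayed below its WT level in *HOT3-EYFP*. Both members have the same seed, which 9 annotated *MIR* loci share.
miR165b: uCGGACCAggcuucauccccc
miR166a-3p: uCGGACCAggcuucauucccc

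At 21, 22 and 24 nt more nuclear windows outside rDNA were called lower than higher in *HOT3-EYFP* relative to *hot3-2*, whereas the called windows of the chloroplast, the mitochondrion and rDNA were mostly higher from 19 nt to 24 nt. A window was called when edgeR's quasi-likelihood test gave a Benjamini-Hochberg adjusted p under 0.01 and the fold change was at least 2. All calls of windows in this paragraph were made on the TMM scale. At 21 nt, 174 of 4085 nuclear windows were lower (4.26%) and 69 were higher (1.69%). At 22 nt, 143 of 7820 were lower (1.83%) and 89 higher (1.14%), and at 24 nt 126 of 25928 were lower (0.486%) and 83 higher (0.32%). At 18 nt 100 of 1179 were lower (8.48%) and 13 higher (1.1%), at 23 nt 62 of 11680 were lower and 62 higher (0.531% each), and at 26 nt 20 of 443 were lower (4.51%) and 1 higher (0.226%). Without a stretch of 6700 bp on chromosome 3 that held many of the falls, 86 were lower and 89 higher at 22 nt, and 88 lower and 83 higher at 24 nt. In the chloroplast 122 of 516 windows were higher at 21 nt (23.6%) and 2 were lower (0.388%), and 144 of 463 were higher at 22 nt (31.1%). No chloroplast window was called lower at 22 nt (0%). At 24 nt 119 of 400 chloroplast windows were higher (29.8%) and 1 was lower (0.25%). In rDNA 59 of 129 windows were higher at 21 nt (45.7%) and 5 lower (3.88%), 82 were higher at 22 nt (63.6%) and 2 lower (1.55%), and 76 of 138 were higher at 24 nt (55.1%) and 1 lower (0.725%). In the mitochondrion 13 of 78 windows were higher at 21 nt (16.7%), 25 of 87 at 22 nt (28.7%) and 14 of 132 at 24 nt (10.6%), and none was called lower at those lengths. At 26 nt the calls outside the nuclear windows went the other way, with 13 of 376 chloroplast windows lower (3.46%) and 2 higher (0.532%), and 3 of 113 rDNA windows (2.65%) and 3 of 85 mitochondrial windows (3.53%) lower and none higher. At 18 nt 2 of 83 mitochondrial windows were lower (2.41%) and 1 higher (1.2%).

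**Figure D1:**
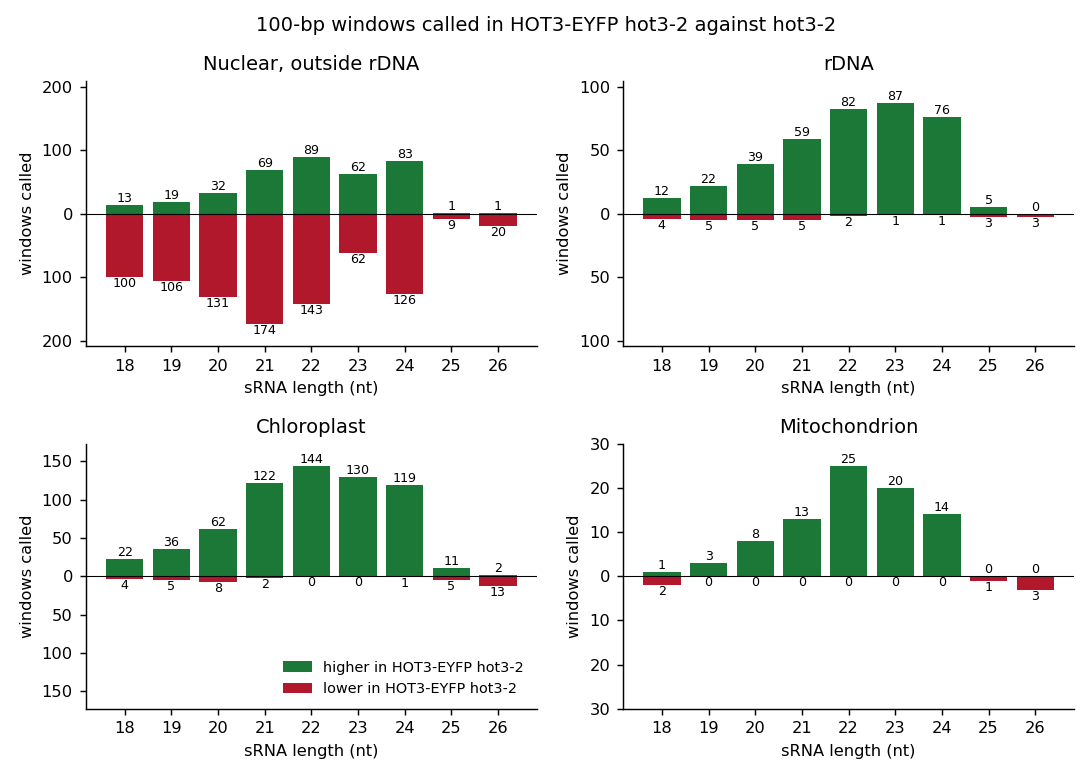
Number of 100-bp windows called higher (green, above the line) and lower (red, below the line) in *HOT3-EYFP* than in *hot3-2*, by sRNA length in nt on the x axis, with a panel for each genome compartment and its own y scale. At 21 nt, 174 nuclear windows were lower and 69 higher, while in the chloroplast 122 were higher and 2 lower.

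The split of nuclear windows into higher and lower depended on how libraries were scaled, and the libraries differed in how much of them was rRNA. Counts in rDNA made up 52.1% ± 0.10 of *HOT3-EYFP* libraries and 33.9% ± 0.21 of *hot3-2* libraries (SD, n = 2 each), and nuclear counts outside rDNA made up 32.4% ± 0.34 and 50.8% ± 0.37. The values above use TMM scaling, under which the median log2 fold change of all nuclear windows was -0.25 at 21 nt, -0.14 at 22 nt and -0.05 at 24 nt. With the total of all lengths as library size these medians were -0.75 and -0.79 at 21 and 22 nt, and 6.63% of nuclear windows were called lower and 0.734% higher at 21 nt, 5.08% and 0.384% at 22 nt, and 1.56% and 0.0656% at 24 nt. With nuclear counts outside rDNA as library size the split turned at 24 nt, where 0.413% were lower and 0.552% higher (107 and 143 windows), while at 21 nt 149 were lower and 87 higher, and at 22 nt 146 and 90. Changes of single loci are therefore given relative to the TMM scale. Calls in the chloroplast, the mitochondrion and rDNA were counted on the TMM scale alone. At 22 nt the TMM factors were 0.824 and 0.798 in *HOT3-EYFP*, against 1.144 and 1.106 in *hot3-2*. These factors raise the fold change of every window relative to the length total. The rises in the organelles and rDNA were not counted without them. The counts of windows also rested on both libraries of each genotype. Without any 1 of the 4 libraries of *HOT3-EYFP* and *hot3-2*, 27 to 43 nuclear windows were higher at 21 nt, 42 to 52 at 22 nt and 35 to 45 at 24 nt, with the lowest count at 21 nt without *hot3-2* replicate 2. The count of lower windows moved by more than 1.5 times without *hot3-2* replicate 1 (113 at 21 nt, 95 at 22 nt and 81 at 24 nt), without *HOT3-EYFP* replicate 1 (95 at 22 nt), and at 24 nt without *hot3-2* replicate 2 (77) or *HOT3-EYFP* replicate 2 (78).

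The strongest falls at single *MIR* genes were at loci that were nearly silent in WT. *MIR845a* and *MIR845b* (chr4:12217457-12217477 and chr4:12214086-12214107 for the mature miRNAs, both on the minus strand) make miRNAs known to match the primer binding sites of retrotransposons. At 21 nt *MIR845a* had 369 and 208 counts in *HOT3-EYFP*, against 24712 and 29299 in *hot3-2*. *hot3-3* had 21536 and 23254 counts, and WT had 253 and 228 counts. The log2 fold change of *MIR845a* between *HOT3-EYFP* and *hot3-2* was -6.15 ± 0.20 (SE; edgeR adjusted p = 1.7e-07). *MIR845b* at 22 nt had 14 and 5 counts in *HOT3-EYFP*, against 869 and 913 in *hot3-2* (log2 fold change -5.97 ± 0.26, edgeR adjusted p = 2.3e-09). For both genes each *HOT3-EYFP* library lay far below each *hot3-2* library and near WT, where *MIR845b* had 6 and 4 counts.

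*MIR843* (mature miRNA at chr3:17742147-17742167, plus strand) overshot. At 21 nt it had 79.7 and 57.9 CPM (counts scaled to the TMM-adjusted size of the length class) in *HOT3-EYFP*, against 2460 and 2572 CPM in *hot3-2*, a log2 fold change of -5.19 ± 0.15 (edgeR adjusted p = 9.5e-08). WT had 182.9 and 188.4 CPM, so that *MIR843* was also lower in *HOT3-EYFP* than in WT (log2 fold change -1.43, edgeR adjusted p = 0.00036).

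Several abundant miRNA loci fell to near the WT level. *MIR158a*, whose miRNA is known to target pentatricopeptide repeat (PPR) genes, had 46709 and 38467 counts at 20 nt in *HOT3-EYFP*, against 108529 and 111655 in *hot3-2* (log2 fold change -1.33 ± 0.03, edgeR adjusted p = 3.5e-07), and WT had 41100 and 44041. *MIR158a* and *MIR158b* share sequence, and their summed counts of 46996 and 38715 in *HOT3-EYFP*, against 109684 and 112811 in *hot3-2*, moved the same way. *MIR161*, which also targets PPR genes, fell at 20 nt to 1102 and 948 counts in *HOT3-EYFP*, against 4861 and 4942 in *hot3-2* (log2 fold change -2.21 ± 0.05, edgeR adjusted p = 4.9e-07). At 21 nt, the length of miR161.1, *MIR161* had 13461 and 11588 counts in *HOT3-EYFP*, against 19146 and 18303 in *hot3-2*, and was not called (log2 fold change -0.16 ± 0.04, edgeR adjusted p = 0.026). The fall at *MIR161* was therefore called for the 20-nt form and not for the 21-nt form, and the difference between the forms was not tested.

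Other *MIR* genes that fell had lower levels. *MIR823*, whose miRNA targets the DNA methyltransferase gene *CMT3*, had 31 and 27 counts at 21 nt in *HOT3-EYFP*, against 357 and 372 in *hot3-2* (log2 fold change -3.22). *MIR866* at 20 nt had 77 and 79 counts in *HOT3-EYFP*, against 972 and 1134 in *hot3-2*, and *MIR858a*, whose miRNA targets *MYB* genes, had 297 and 277 counts at 21 nt, against 1021 and 1012. In each of these genes both *HOT3-EYFP* libraries lay below both *hot3-2* libraries. WT had 32 and 45 counts for *MIR823*, 91 and 100 for *MIR866*, and 378 and 353 for *MIR858a*. The most abundant of them at 21 nt was *MIR5026*, with 7265 and 5733 counts in *HOT3-EYFP*, against 31780 and 30353 in *hot3-2* (log2 fold change -1.84 ± 0.05). *MIR823*, *MIR866*, *MIR858a* and *MIR5026* were named after their values were seen.

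The lowest counts among the 10 largest falls were at *MIR774a*, *MIR864*, *MIR859*, *MIR5028*, *MIR841a*, *MIR826a* and *MIR826b*. *MIR859* had 3 and 1 counts at 21 nt in *HOT3-EYFP*, against 81 and 68 in *hot3-2*, and *MIR864* had 1 and 0 counts at 20 nt, against 17 and 18. *MIR774a* had no counts at 20 nt in *HOT3-EYFP*, against 10 and 12 in *hot3-2*, which makes it at least 7.10-fold lower with a floor of 3 counts over the group. *MIR826a* and *MIR826b* lie in the same windows and are one measurement. The calls of *MIR864* and *MIR826a* were lost without any 1 of the *HOT3-EYFP* or *hot3-2* libraries (edgeR adjusted p up to 0.0288 and 0.0601), that of *MIR5028* without any of them but *hot3-2* replicate 2 (up to 0.0409), and that of *MIR774a* without either *HOT3-EYFP* library (up to 0.0278).

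Fewer *MIR* genes rose. *MIR163*, whose miRNA targets methyltransferase genes, had 854 and 694 counts at 21 nt in *HOT3-EYFP*, against 292 and 305 in *hot3-2* (log2 fold change 1.80 ± 0.15, edgeR adjusted p = 5.9e-05), and WT had 576 and 487. At 24 nt, the length of the mature miR163, *MIR163* had 817 and 643 counts in *HOT3-EYFP*, against 940 and 850 in *hot3-2* (log2 fold change 0.12 ± 0.11, edgeR adjusted p = 0.62). The change at *MIR163* was thus called at 21 nt and not at the length of the mature miRNA.

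*MIR827*, whose miRNA acts in phosphate homeostasis, had 100 and 102 counts at 21 nt in *HOT3-EYFP*, against 25 and 34 in *hot3-2* (log2 fold change 2.21 ± 0.29, edgeR adjusted p = 0.0008). *MIR472* at 22 nt, whose miRNA targets disease resistance genes, had 45 and 38 counts in *HOT3-EYFP*, against 14 and 15 in *hot3-2* (log2 fold change 2.08 ± 0.30, edgeR adjusted p = 0.00036). Both were near WT, which had 77 and 61 counts for *MIR827* and 58 and 54 for *MIR472*. *MIR159b*, whose miRNA represses *GAMYB*-like genes, was the most abundant gene that rose, with 27603 and 22971 counts at 21 nt in *HOT3-EYFP*, against 16345 and 16458 in *hot3-2*, and 42484 and 44661 in WT. Its log2 fold change of 1.05 ± 0.02 (edgeR adjusted p = 3.7e-08) lay just past the 2-fold limit and left it between the mutant and WT. Without *hot3-2* replicate 2 *MIR159b* was at 0.98, and without *hot3-3* replicate 1 at 0.99, both short of the limit.

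The others of the 10 largest rises were *MIR167d* and *MIR164c*, which act on auxin response and *NAC* genes, *MIR160c*, *MIR391*, *MIR408*, *MIR8175* and *MIR395e*. *MIR167d* at 22 nt had 238 and 223 counts in *HOT3-EYFP*, against 85 and 115 in *hot3-2*. *MIR164c* at 21 nt had 261 and 196 counts in *HOT3-EYFP*, against 96 and 100 in *hot3-2*. *MIR408*, a copper-regulated gene, was called at 22 nt with 50 and 32 counts in *HOT3-EYFP*, against 22 and 15, while its 21-nt counts of 2477 and 2146, against 2939 and 3066, gave a log2 fold change of 0.05 (edgeR adjusted p = 0.52). *MIR8175* shares sequence with 213 other windows, and the sum over them was 153 and 141 counts at 22 nt in *HOT3-EYFP*, against 113 and 111 in *hot3-2*. *MIR395e*, in a family that acts in sulfate assimilation, had 11 and 13 counts at 20 nt in *HOT3-EYFP*, against none in *hot3-2*, at least 8.38-fold higher, but with the windows that share its sequence the sum was 29 and 38, against 70 and 66 in *hot3-2*. The calls of *MIR395e*, *MIR160c* and *MIR391* were lost without any 1 of the *HOT3-EYFP* or *hot3-2* libraries (edgeR adjusted p up to 0.0339, 0.0613 and 0.0465). *MIR408* lost its call without *HOT3-EYFP* replicate 1 or *hot3-2* replicate 2 (up to 0.0536), and *MIR8175* without replicate 1 of either genotype (up to 0.0241).

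**Figure D2:**
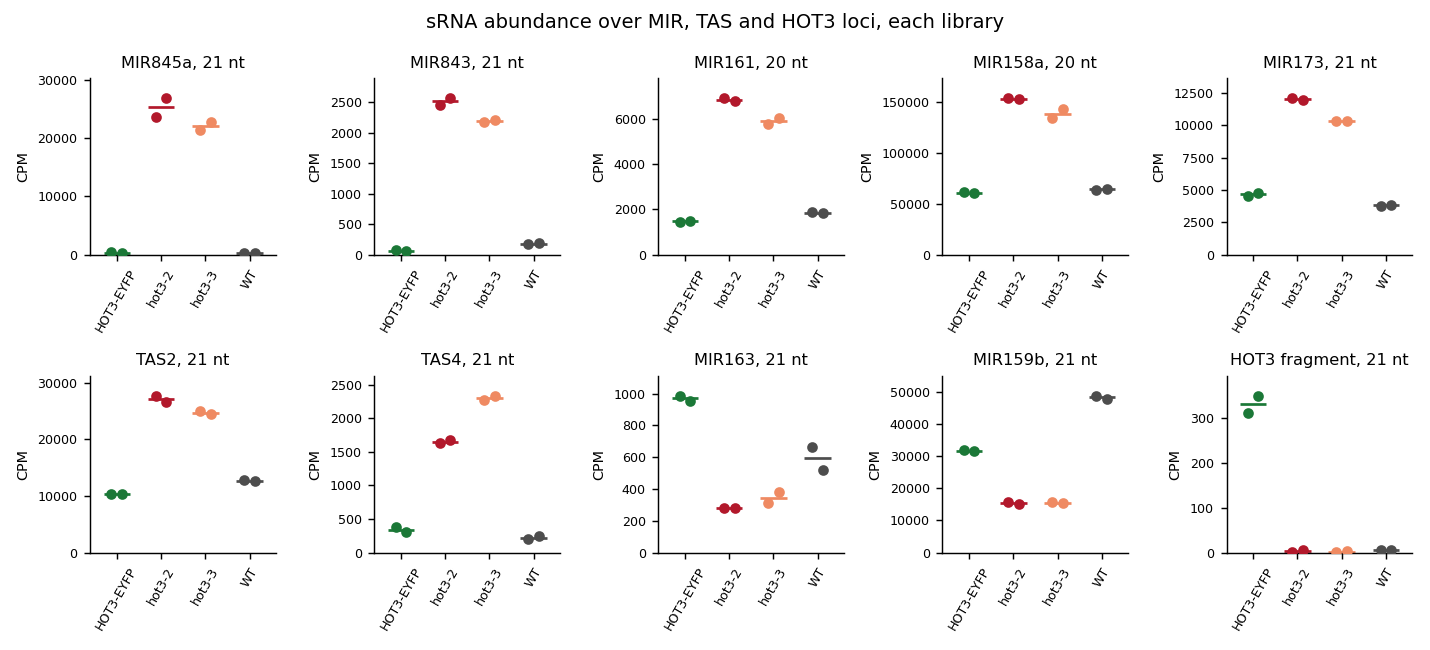
sRNA level in CPM of the length class (y axis from 0) for 8 *MIR* and *TAS* genes that fell or rose, *MIR159b* and the *HOT3* fragment, with a point for each of the 2 libraries of a genotype and a line at their mean. For *MIR845a*, *MIR843*, *MIR161*, *MIR158a*, *MIR173*, *TAS2* and *TAS4* both *HOT3-EYFP* libraries lie below all libraries of *hot3-2* and *hot3-3*.

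By function the *MIR* genes did not move together. At 21 nt, 28 of 197 *MIR* loci were lower (14.2%) and 9 were higher (4.57%), with a median log2 fold change of -0.20, against -0.25 over all nuclear windows. At 20 nt 22 of 129 were lower (17.1%) and 4 higher (3.1%), at 22 nt 11 of 116 were lower (9.48%) and 5 higher (4.31%), and at 24 nt 5 of 90 were lower (5.56%) and none higher (0%). Of the 20 loci of the hormone and growth families (miR159, miR160, miR164, miR167, miR319, miR393 and miR396) 5 were higher and none lower, with a median of 0.68. Among the phase-change families (miR156, miR157 and miR172) 1 of 12 loci was higher, *MIR156d*, with 1182 and 1021 counts in *HOT3-EYFP*, against 561 and 583 in *hot3-2* (log2 fold change 1.37 ± 0.07, edgeR adjusted p = 2.8e-06). Of 9 nutrient loci (miR395, miR399 and miR827) 1 was higher, and of 7 copper loci and 8 leaf polarity loci (miR165 and miR166) none was called. The falls were almost all among the 132 loci outside these lists, of which 26 were lower and 2 higher with a median of -0.41. Among 5 loci that act on the silencing pathway, *MIR168b* was lower, with 107 and 70 counts in *HOT3-EYFP*, against 249 and 297 in *hot3-2*. It shares the mature miRNA with *MIR168a*, which targets *AGO1*, and the family together had 565 and 439 counts in *HOT3-EYFP*, against 556 and 548 in *hot3-2*.

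Of the 7 *TAS* loci 3 were called lower at 21 nt in *HOT3-EYFP* than in *hot3-2* (42.9%), against 4.26% of all nuclear windows. The *TAS* loci are sums over several windows. Of nuclear windows with at least 30 counts in 2 or more libraries 20.3% were lower. The median log2 fold change of the 7 was -0.95, against -0.25 over all nuclear windows. *MIR173*, the trigger of the *TAS1* and *TAS2* tasiRNAs, which act on PPR genes among others, had 3932 and 3466 counts at 21 nt in *HOT3-EYFP*, against 12637 and 13052 in *hot3-2* (log2 fold change -1.37 ± 0.03, edgeR adjusted p = 4.5e-08), and 3302 and 3577 in WT. The trigger miR173-5p itself is 22 nt long. At that length 1 of the 4 loci of *TAS* triggers was tested, with a log2 fold change of -0.92, and it was not called. *TAS2* had 8958 and 7477 counts at 21 nt in *HOT3-EYFP*, against 28885 and 29068 in *hot3-2* (log2 fold change -1.40 ± 0.03, edgeR adjusted p = 2e-08), and 11156 and 11753 in WT. *TAS2* was also called lower at 20 nt (-1.65) and 24 nt (-1.57), but not at 22 nt (-0.80). *TAS1A* missed the 2-fold limit with 16930 and 14180 counts in *HOT3-EYFP*, against 39832 and 40932 in *hot3-2* (log2 fold change -0.95 ± 0.02), and *TAS1B* (-0.64) and *TAS1C* (-0.08) lay nearer to 0. *TAS1C* had an edgeR adjusted p of 0.092 and a log2 fold change of 0.0698 with nuclear counts as library size.

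*TAS4*, whose siRNAs act on *MYB* genes, had 324 and 226 counts in *HOT3-EYFP*, against 1702 and 1831 in *hot3-2* (log2 fold change -2.27 ± 0.12, edgeR adjusted p = 2.4e-06), and 176 and 224 in WT. *TAS3* and *TAS3b* depend on miR390 and act on auxin response factor genes. *TAS3b* had 39 and 21 counts in *HOT3-EYFP*, against 141 and 131 in *hot3-2* (log2 fold change -1.78 ± 0.29, edgeR adjusted p = 0.0029), and its call was lost without *HOT3-EYFP* replicate 2 or either *hot3-2* library (edgeR adjusted p up to 0.0173). *TAS3*, with 2068 and 1889 counts against 3579 and 3606, had a log2 fold change of -0.43 ± 0.05. The miR390 genes did not pass the test: *MIR390a* had 387 and 326 counts in *HOT3-EYFP*, against 429 and 384 in *hot3-2* (log2 fold change 0.23 ± 0.14, edgeR adjusted p = 0.31), and *MIR390b* had 89 and 106, against 116 and 133 (0.09 ± 0.23, edgeR adjusted p = 0.83).

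The PPR genes that miR161 and the tasiRNAs act on are known to make secondary siRNAs. The set taken was every gene annotated as a PPR protein or, since many PPR genes carry that older description, as a protein with tetratricopeptide-like repeats. At 21 nt 22 of 99 tested windows in these genes were lower in *HOT3-EYFP*, none was higher and 89 had a log2 fold change below 0, with a median of -1.13. Over all nuclear windows 4.26% were lower, 61.2% were below 0 and the median was -0.25. Of nuclear windows with at least 30 counts in 2 or more libraries 20.3% were lower, with a median of -0.48. The share thus depended on the number of counts. The called windows lay in 8 genes, 6 of them between *AT1G62910* and *AT1G63400* on chromosome 1. The window of *AT1G77230* had the same counts as *MIR402*, 5 and 8 in *HOT3-EYFP*, against 32 and 46 in *hot3-2*. Its call cannot be told apart from that of *MIR402*. *AT1G63150*, at chr1:23419900-23420399, had 1183 and 981 counts in *HOT3-EYFP*, against 3736 and 3926 in *hot3-2*, and 1458 and 1485 in WT. *AT1G62910*, at chr1:23299600-23300399, had 662 and 497 counts in *HOT3-EYFP*, against 2357 and 2399 in *hot3-2*, and *AT1G63080*, at chr1:23389400-23390299, had 1135 and 1049, against 2726 and 3144. In all 3 the libraries of both genotypes did not overlap. These genes were chosen after values were seen, and reads shared among their copies may be placed at any of them.

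The longest run of called windows lay on chromosome 3 at chr3:1963700-1970399, a stretch of 6700 bp that holds the non-coding RNA genes *AT3G01835* and *AT3G01845* and the loci *AT3G00220*, *AT3G06435* and *AT3G06436*. At 21 nt 56 of its 65 tested windows were lower, at 22 nt 57 and at 24 nt 38. The summed 21-nt counts were 3811 and 3179 in *HOT3-EYFP*, against 19700 and 20542 in *hot3-2*. *hot3-3* had 19311 and 19965 counts, and WT had 3261 and 3511 counts. In CPM, the *hot3-2* level was 4.29 times the *HOT3-EYFP* level at 21 nt, 4.06 times at 22 nt and 2.79 times at 24 nt. The 22-nt sRNAs were the most abundant, with 6138 and 5039 counts in *HOT3-EYFP*, against 33285 and 34369 in *hot3-2*. The stretch supplied 57 of the 143 nuclear windows that were lower at 22 nt, and 86 were lower without it. Some of its windows stayed above WT: 3 were called higher in *HOT3-EYFP* than in WT at 22 nt and 2 at 24 nt, such as the window that starts at position 1965800, with 47 and 52 counts at 22 nt in *HOT3-EYFP*, against 12 and 22 in WT (log2 fold change 1.79, edgeR adjusted p = 0.0021).

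**Figure D3:**
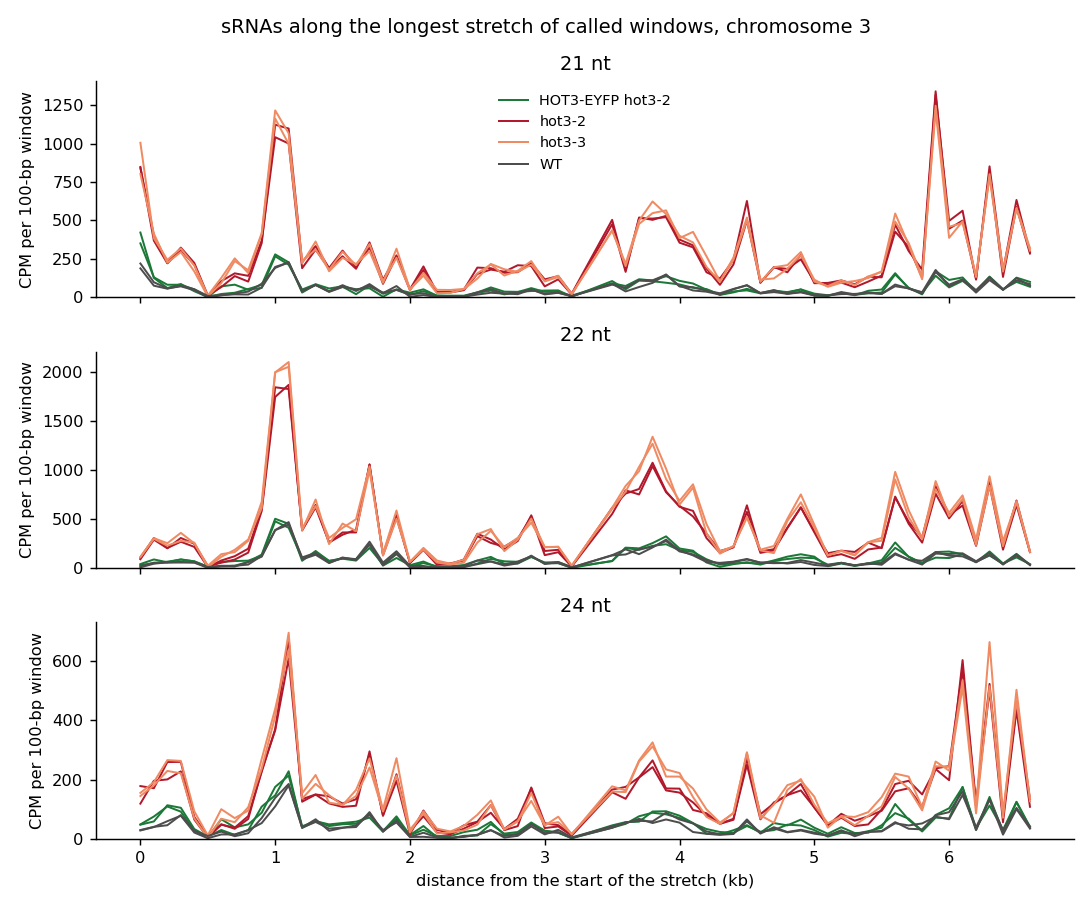
CPM per 100-bp window (y axis) along the stretch on chromosome 3, with the distance from its start in kb on the x axis and a panel each for 21 nt, 22 nt and 24 nt; every line is 1 library. The *HOT3-EYFP* lines lie near the WT lines, above them in some windows and below them in others, and below the peaks of *hot3-2* and *hot3-3*. The summed 21-nt counts were 3179 to 3811 in *HOT3-EYFP*, against 19700 to 20542 in *hot3-2*.

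Some shorter runs showed larger ratios. At chr5:16715900-16717099, which holds *AT5G41765*, annotated as a DNA-binding storekeeper-related regulator, and *AT5G06195*, the 21-nt counts were 53 and 33 in *HOT3-EYFP*, against 1007 and 1052 in *hot3-2*, a ratio of 18.1 between *hot3-2* and *HOT3-EYFP* in CPM. The intergenic stretch chr1:27635600-27636399 had 4 and 6 counts in *HOT3-EYFP*, against 256 and 247 in *hot3-2* (ratio 36.6), and WT had 5 and 7. A pair of runs on chromosome 4, at chr4:7882400-7883299 with *AT4G13560* and *MIR5996* and at chr4:7885200-7885599 with the histone gene *HTA4* and *MIR841a*, had 127 and 94 counts at 24 nt in *HOT3-EYFP*, against 987 and 1008 in *hot3-2*, and 29 and 18 counts at 21 nt, against 264 and 267. Both chromosome 4 runs were also below WT, which had 317 and 355 counts at 24 nt in the first run and 93 and 106 at 21 nt in the second. The runs were named after their values were seen.

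The windows of the *HOT3* gene itself held sRNAs in *HOT3-EYFP*. The fragment of the transgene spans chr1:28831369-28837784 by the published cloning primers, and the gene lies at chr1:28830902-28836748 on the minus strand. At 21 nt the windows inside the fragment had 270 and 254 counts in *HOT3-EYFP*, against 2 and 5 in *hot3-2*. *hot3-3* had 1 and 3 counts, and WT had 4 and 6 counts. The log2 fold change was 6.61 ± 0.48 (edgeR adjusted p = 2.2e-05). At 22 nt the fragment had 93 and 57 counts in *HOT3-EYFP*, against 4 and 5 in *hot3-2* (4.58 ± 0.51, edgeR adjusted p = 3.2e-05), at 20 nt 50 and 49, against 3 and 3 (4.04 ± 0.68, edgeR adjusted p = 0.0048), and at 24 nt 34 and 24, against 4 and 0, which was not called (4.17 ± 0.96, edgeR adjusted p = 0.033). Over all lengths the fragment had 531 and 465 counts in *HOT3-EYFP* and between 16 and 28 in each of the other 6 libraries.

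The part of the gene outside the fragment had no counts in either *HOT3-EYFP* or *hot3-2* library. In the 5 kb on each side of the fragment the 21-nt counts were 13 and 23 in *HOT3-EYFP*, against 11 and 6 in *hot3-2* (log2 fold change 1.52 ± 0.60, edgeR adjusted p = 0.13). The highest window at *HOT3* by fold change, chr1:28832100-28832199, lies in an exon and had 52 and 30 counts in *HOT3-EYFP*, against 0 and 1 in *hot3-2*. The counts do not tell the transgene from the native gene, and carry no strand.

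Some windows in nuclear photosynthesis genes rose. The 47 genes were chosen by name after values were seen and encode light-harvesting proteins, photosystem subunits and related proteins. At 22 nt 17 of 94 tested windows were higher, none was lower and all 94 had a log2 fold change above 0, with a median of 2.24. Over all nuclear windows 1.14% were higher at 22 nt and the median was -0.14. At 21 nt 13 of 97 were higher, against 1.69% of all nuclear windows, and the median was 1.96. *LHCB3* had 19 and 14 counts at 22 nt in *HOT3-EYFP*, against 1 and 1 in *hot3-2* (log2 fold change 4.43 ± 0.71, edgeR adjusted p = 0.00094), and WT had 10 and 11. *PSBO1*, of the oxygen-evolving complex, had 20 and 17 counts at 22 nt in *HOT3-EYFP*, against 0 and 2 in *hot3-2* (log2 fold change 4.60 ± 0.88, edgeR adjusted p = 0.0036), and *LHCA3* had 18 and 22 counts at 24 nt, against 1 and 3 (3.67 ± 0.64, edgeR adjusted p = 0.0063). All these windows held few counts. The windows of *LHCB3*, *PSBO1* and *LHCA3* had too few *hot3-2* counts for the filter and passed it through other genotypes, *HOT3-EYFP* among them. The number of windows above 0 and the medians may therefore rest in part on the filter. From 18 nt to 24 nt the medians were 1.17 to 2.24, but 1 of 109 windows was called higher at 18 nt, 3 of 104 at 19 nt and 4 of 95 at 24 nt.

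Of the 1545 chloroplast windows 516 were tested at 21 nt, 463 at 22 nt and 400 at 24 nt. Their median log2 fold changes on the TMM scale were 1.02, 1.27 and 1.24. Their share of all counts was nonetheless the same, at 14.6% ± 0.21 of *HOT3-EYFP* libraries and 14.7% ± 0.12 of *hot3-2* libraries (SD, n = 2 each). A pair of windows in the inverted repeat, at the *ndhB* copies, held most of the 22-nt chloroplast counts and had values on the other side of 0: the first copy had 101418 and 90672 counts in *HOT3-EYFP*, against 181767 and 207334 in *hot3-2*, and 76400 and 83319 in WT. The log2 fold change there was -0.44 ± 0.03, which missed the 2-fold limit. The largest rise at 21 nt was in a *trnL* window, with 848 and 682 counts in *HOT3-EYFP*, against 138 and 137 in *hot3-2*. The largest at 22 nt was in *psbB*, a photosystem II gene, with 13 and 15 counts, against 1 and 3, and at 24 nt in *rrn23S*, with 107 and 88, against 17 and 24. The largest falls were next to *rrn16S* at 21 nt, with 291 and 240 counts in *HOT3-EYFP*, against 1332 and 1261 in *hot3-2*, and in *rps12* at 24 nt, with 10 and 12, against 60 and 75.

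In the mitochondrion 1 window had the largest rise at 21, 22 and 24 nt, with 290 and 182 counts at 22 nt in *HOT3-EYFP*, against 24 and 24 in *hot3-2*. In WT it had 71 and 70. Chloroplast tRNA loci were higher in 12 of 34 cases at 21 nt (35.3%), against 23.6% of all chloroplast windows, and lower in none. Nuclear tRNA loci were higher in 7 of 171 cases (4.09%) and lower in 2 (1.17%). Over all nuclear windows 1.69% were higher and 4.26% lower at 21 nt. snoRNA loci, whose RNAs guide rRNA modification, were called lower in 29 of 118 cases at 18 nt (24.6%) and 6 of 105 at 21 nt (5.71%), against 8.48% and 4.26% of all nuclear windows, and none was higher at those lengths. At 22 nt 3 of 95 snoRNA loci were lower (3.16%) and 3 higher (3.16%).

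With the total count as library size, the 5′ ETS of the precursor and the boundary of 18S and ITS1 fell by more than 2-fold at 21 nt. The other rDNA regions changed by less than 2-fold on that scale. The calls of single rDNA windows given earlier were made on the TMM scale instead. Counts were summed over both annotated rDNA copies, on chromosomes 2 and 3 (18S at chr2:3706-5513 and chr3:14197677-14199484), and scaled by the total count of the library, so CPM here refers to the whole library. At 21 nt the 5′ ETS had 78.2 and 80.4 CPM in *HOT3-EYFP*, against 221 and 227 in *hot3-2*; *hot3-3* had 191 and 194 CPM, and WT had 88.0 and 97.0 CPM. The log2 fold change was -1.50 ± 0.07 (edgeR adjusted p = 3.4e-07). The boundary of 18S and ITS1 had 153.7 and 156.8 CPM in *HOT3-EYFP*, against 323 and 315 CPM in *hot3-2* (log2 fold change -1.04 ± 0.05, edgeR adjusted p = 4.2e-07), and 136 and 134 in WT.

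Within 18S the ends differed. The 3′ part of 18S had 3417 and 3466 CPM at 21 nt in *HOT3-EYFP*, against 4599 and 4436 in *hot3-2* (log2 fold change -0.39 ± 0.02, below the 2-fold limit), and 3058 and 3075 in WT. The rest of 18S had 9668 and 9709 CPM in *HOT3-EYFP*, against 5798 and 5893 in *hot3-2* (log2 fold change 0.73 ± 0.01). The libraries of both genotypes did not overlap in either part. On the TMM scale the 5′ ETS changed by -0.998, the boundary by -0.54 and the 3′ part of 18S by 0.11 on the log2 scale. The direction in the 3′ part thus depended on the scaling, and its lower value relative to the rest of 18S did not. On the TMM scale the 5′ ETS and the boundary missed the 2-fold limit, while the rest of 18S and 25S rose by more than 2-fold. At 22 nt the 3′ part of 18S was higher in *HOT3-EYFP*, at 3276 and 3246 CPM, against 2187 and 2252 CPM in *hot3-2*, and at 24 nt it had 3288 and 3270, against 1676 and 1682.

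Among the other regions at 21 nt the log2 fold changes were 0.34 in 18S as a whole, 0.16 in ITS1, 0.52 in 5.8S, 0.69 in ITS2 and 0.70 in 25S, and -0.13 at the 3′ end of 25S. 25S was called at 22 nt, with a log2 fold change of 1.105 ± 0.015. ITS1 was not uniform: in the copy on chromosome 3 its first 2 windows had 1.83 and 1.57 CPM and 2.80 and 3.42 CPM in *HOT3-EYFP*, against 16.1 and 17.2 CPM and 25.8 and 24.2 CPM in *hot3-2*, log2 fold changes of -3.30 and -3.01. The 5′ ETS fell at 22 nt (-1.56) and, within the 2-fold limit, at 24 nt (-0.80), whereas the boundary had -0.84 at 22 nt and 0.19 at 24 nt.

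**Figure D4:**
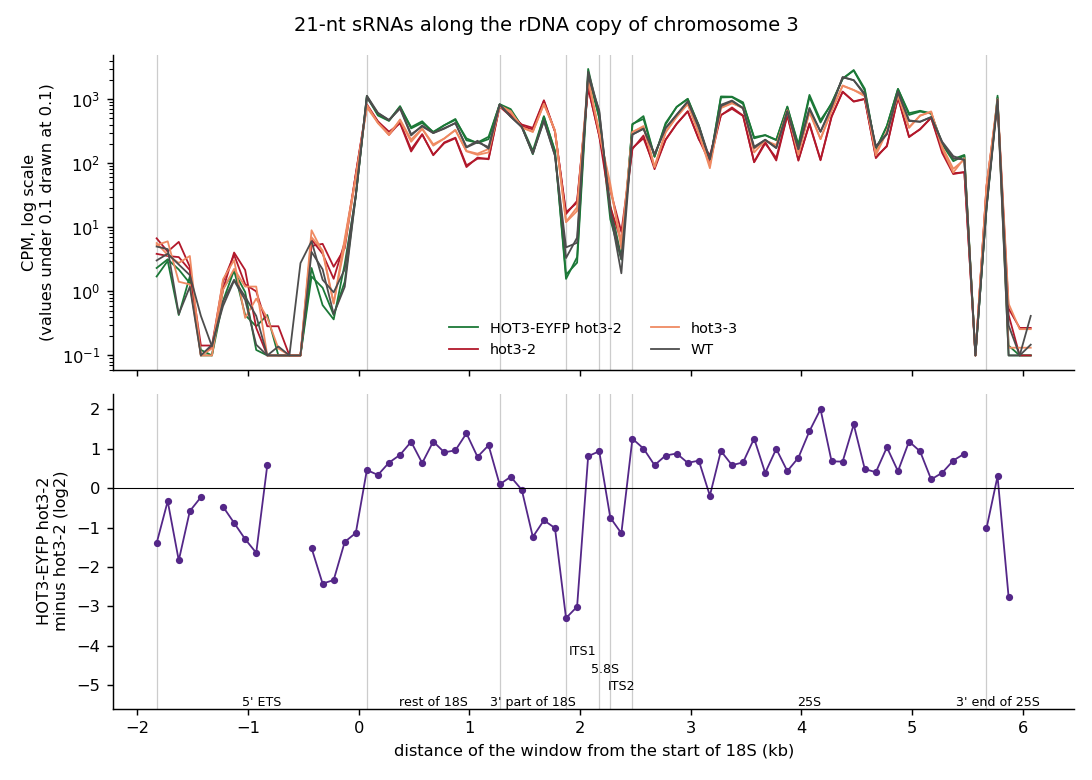
Upper panel, 21-nt sRNAs in CPM of the whole library (log scale, values under 0.1 drawn at 0.1) along the rDNA copy of chromosome 3, with the distance from the start of 18S in kb on the x axis and a line for each of the 8 libraries; lower panel, the log2 ratio between *HOT3-EYFP* and *hot3-2* for the same windows. The change is below 0 in most of the 5′ ETS, in the last windows of 18S and at the start of ITS1, where it reaches -3.30, and above 0 in most of 25S.

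The windows changed in *hot3-3* gave a choice of windows from libraries that are in neither group of this comparison. At 21 nt 146 nuclear windows were higher in *hot3-3* than in WT (3.57% of 4085). Of these 138 (94.5%) had a log2 fold change below 0 in *HOT3-EYFP* against *hot3-2*, 111 were called lower, and their median was -2.07. Over all nuclear windows 61.2% were below 0, 4.26% were called lower and the median was -0.25. At 22 nt 123 windows were higher in *hot3-3* (1.57%), of which 113 went the opposite way, 81 were called lower and 2 were called higher (median -1.87, against -0.14). At 24 nt 180 were higher in *hot3-3* (0.694%), of which 150 went the opposite way, 67 were called lower and 7 were called higher (median -1.09, against -0.05). Neighbouring windows of a locus are counted separately here. The stretch on chromosome 3 was also higher in *hot3-3* than in WT. Without it 118 instead of 174 nuclear windows were lower in *HOT3-EYFP* at 21 nt, and 86 instead of 143 at 22 nt. How many of the windows chosen on *hot3-3* lie in it was not counted. Of the windows lower in *hot3-3* than in WT, 46 of 51 at 21 nt (1.25% of all nuclear windows), 37 of 41 at 22 nt (0.524%) and 38 of 56 at 24 nt (0.216%) were above 0 in *HOT3-EYFP* against *hot3-2*, and 16, 15 and 4 were called higher. Over all nuclear windows 38.7%, 43.0% and 47.3% were above 0 at these lengths. At 24 nt as many of the windows lower in *hot3-3*, 4, were called lower in *HOT3-EYFP* than in *hot3-2* as were called higher, and at 21 and 22 nt 1 each was called lower.

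**Figure D5:**
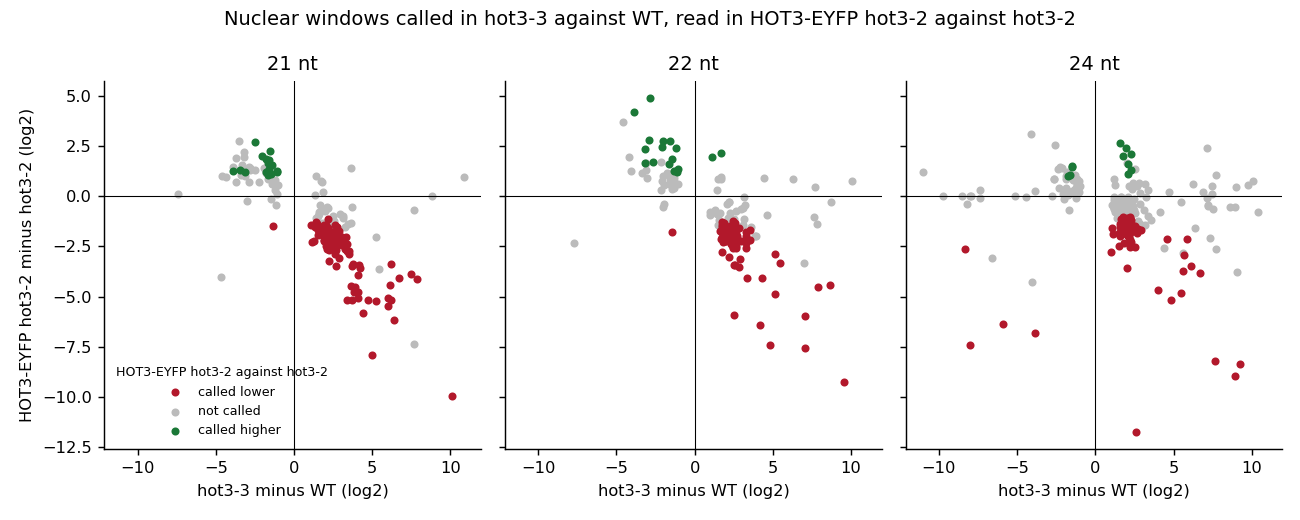
Each point is a nuclear window called in *hot3-3* against WT at 21, 22 or 24 nt, with its log2 fold change in *hot3-3* minus WT on the x axis and in *HOT3-EYFP* minus *hot3-2* on the y axis; red points were called lower in *HOT3-EYFP*, green points higher and grey points not called. Most windows lie at the lower right and upper left, as in 138 of 146 windows higher in *hot3-3* at 21 nt.

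Read from the other side, a larger share of falls than of rises overlapped, but more windows were higher than lower in *hot3-3*. Over all nuclear windows 3.57% were called higher and 1.25% lower in *hot3-3* than in WT at 21 nt. At 24 nt these shares were 0.694% and 0.216%. Of the 174 windows lower in *HOT3-EYFP* at 21 nt, 111 (63.8%) were called higher in *hot3-3* than in WT, which is 76.0% of the 146 windows higher in *hot3-3*. Of the 69 windows higher in *HOT3-EYFP*, 16 (23.2%) were called lower in *hot3-3*, which is 31.4% of the 51 windows lower in *hot3-3*. At 24 nt the shares were 67 of 126 falls (53.2%) and 4 of 83 rises (4.82%). The many windows of the chromosome 3 stretch count among the falls. The difference between falls and rises was not tested.

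Against WT 22 of 4085 nuclear windows were called in *HOT3-EYFP* at 21 nt (0.539%), 36 of 7820 at 22 nt (0.46%) and 100 of 25928 at 24 nt (0.386%). Some of these had also moved away from *hot3-2*, in the same direction: 7 of the 15 lower and 1 of the 7 higher than WT at 21 nt, 6 of 16 and 3 of 20 at 22 nt, and 14 of 46 and 13 of 54 at 24 nt were called the same way against *hot3-2*. Over all nuclear windows 4.26% were lower and 1.69% higher than in *hot3-2* at 21 nt. The shares were 1.83% and 1.14% at 22 nt, and 0.486% and 0.32% at 24 nt. Both comparisons use the same *HOT3-EYFP* libraries, so calls in the same direction are not independent, and the overlap was not tested. Some *MIR* genes were also still away from their WT level. *MIR165b* and *MIR166a* (mature miRNAs at chr4:369856-369876, minus strand, and chr2:19176241-19176261, plus strand) make miRNAs that restrict the *HD-ZIP III* genes of leaf polarity. *MIR165b* had 410 and 222 counts at 21 nt in *HOT3-EYFP*, against 518 and 460 in *hot3-2* and 1906 and 2315 in WT (log2 fold change against WT -2.58, edgeR adjusted p = 0.00014; against *hot3-2* -0.23, edgeR adjusted p = 0.48). *MIR166a* had 7038 and 6464 counts in *HOT3-EYFP*, against 6247 and 5730 in *hot3-2* and 15825 and 17039 in WT (log2 fold change against WT -1.10, edgeR adjusted p = 3.7e-05). Both *HOT3-EYFP* libraries were below both WT libraries in each case.

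The copies of these families share mature sequences, so the sums over copies were computed as well. The 2 *MIR165* loci together had 2154 and 1765 counts at 21 nt in *HOT3-EYFP*, against 3618 and 3648 in *hot3-2* and 5766 and 6067 in WT. The 7 *MIR166* loci together had 10172 and 8677 in *HOT3-EYFP*, against 9193 and 9265 in *hot3-2* and 20402 and 21736 in WT. *MIR396b*, whose miRNA limits the *GRF* growth genes, was also still below WT, with 4189 and 3255 counts in *HOT3-EYFP*, against 5591 and 5332 in *hot3-2* and 9323 and 9547 in WT (log2 fold change against WT -1.17, edgeR adjusted p = 1.4e-05). *MIR165b*, *MIR166a* and *MIR396b* were named after their values were seen.

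A few loci went past WT. *MIR841a* had 29 and 18 counts at 21 nt in *HOT3-EYFP*, against 242 and 241 in *hot3-2* and 82 and 103 in WT (log2 fold change against WT -1.80, edgeR adjusted p = 0.0024). *MIR400* had 251 and 268 counts, against 918 and 934 in *hot3-2* and 651 and 621 in WT (-1.10, edgeR adjusted p = 0.0016), and *MIR3932b* had 284 and 241, against 1195 and 1341 in *hot3-2* and 780 and 977 in WT (-1.56, edgeR adjusted p = 5.4e-05). *MIR158b* instead stayed above WT at 21 nt, with 67 and 60 counts in *HOT3-EYFP*, against 467 and 422 in *hot3-2* and 34 and 35 in WT. It shares sequence with *MIR158a*, and the family sum was near WT. That sum was 2603 and 2214 counts in *HOT3-EYFP*, against 5889 and 6000 in *hot3-2* and 2460 and 2597 in WT (log2 ratio to WT 0.11). *MIR400*, *MIR3932b* and *MIR158b* were named after their values were seen.

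The largest fold changes at single nuclear windows were at tRNA genes and few-count loci, and many of them did not hold over the copies of the sequence. Of the 30 largest changes by window and length, 7 kept their call without any 1 of the *HOT3-EYFP* or *hot3-2* libraries and 10 lost it whichever was left out. The window of the tRNA gene *AT5G59385* had no 24-nt counts in *HOT3-EYFP*, against 323 and 631 in *hot3-2*. With the 18 windows that share a 24-base word with it, however, the sum was 5294 and 4351, against 4460 and 4752. This tRNA gene was the largest fall at 18, 19, 23, 25 and 26 nt as well. The tRNA gene *AT1G07580* had none at 22 nt, against 93 and 90, while the sum with 28 other windows was 1533 and 1284 in *HOT3-EYFP*, against 1030 and 1246 in *hot3-2*. It was the largest fall at 20 nt. The tRNA gene *AT5G52355*, the largest rise at 18, 19, 23 and 24 nt, had 17 and 17 counts at 21 nt, against none, and a sum with 13 windows of 72 and 45, against 68 and 76. The tRNA gene *AT3G16552* had 12 and 31 counts at 21 nt, against none, and a sum of 58 and 54, against 25 and 41.

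The gene *HAM3*, a target of miR171 that maintains shoot meristems, had 129 and 53 counts at 21 nt in *HOT3-EYFP*, against none in *hot3-2*, and its sequence is shared by 3 other windows that held all of the *hot3-2* counts of that sequence. Its counts also differed widely between WT replicates, at 89 and 14. *HTA4* had none at 21 nt in *HOT3-EYFP*, against 22 and 26 in *hot3-2*, at least 11.9-fold lower, and its sum with 2 windows of 4 and 8, against 53 and 62, kept the direction. *AT5G41765* had none at 22 nt, against 16 and 35, at least 11.3-fold lower. The disease resistance gene *AT5G38850* had 15 and 11 counts at 22 nt in *HOT3-EYFP*, against 0 and 1 in *hot3-2*, and WT had 28 and 36. The aquaporin gene *DELTA-TIP* had the largest rise at 20 nt, with 14 and 11 counts, against none.

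Intergenic windows made up the rest of the largest changes. Near *AT2G17680*, chr2:7677900-7677999 had no 24-nt counts in *HOT3-EYFP*, against 40 and 42 in *hot3-2*, at least 20.4-fold lower, and WT had none either. Near *AT3G45850*, chr3:16854200-16854299 had none, against 40 and 40 in *hot3-2* and none in *hot3-3*, and with 1 other window that shares its sequence the sum was 23 and 20, against 59 and 52. Near *AT1G08750* the window had none, against 22 and 69, and a sum with 11 other windows of about the same size in both genotypes. Near *AT5G26590* the 22-nt counts were none, against 25 and 29, and the sum with 32 other windows was 56 and 50, against 131 and 134. Among rises at 24 nt the window near *AT2G05720* had 22 and 22 counts, against 1 and 2, the window near *AT1G13660* 24 and 81, against 6 and 4, and the window near *AT5G57123* 25 and 11, against 1 and 0. At 22 nt the window near *AT4G01490* had 10 and 8 counts, against 1 and 0, and the window near *AT5G29560* had 33 and 5, against 1 and 1. Few of these windows had more than 50 counts in a *HOT3-EYFP* library. At 25 nt the largest rise, with 233 and 218 counts, against 39 and 43, lay at *PRL* and the tRNA gene *AT4G02055*, and at 26 nt an intergenic window near *AT3G33058* had 282 and 148, against 28 and 35.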

How the data were processed

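RNA of 18 to 26 nt was counted in 8 libraries, 2 for each of 4 genotypes. The authors removed adaptors (cutadapt) and ran pRNASeqTools, and the submitters' processing notes also name Bowtie, featureCounts 2.0.3 and DESeq2 1.34.0. The deposited values are raw counts per 100-bp window and length, without normalization and without strand. The genome build is not given in the sources used here, and the windows matched TAIR10.1 except in the mitochondrion, for which no coordinates are given. Reads that fit several places can be placed at any of them. For named loci, sums were computed over windows that share a word as long as the sRNA.

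Each length was fitted with edgeR 4.0.16 (R 4.3.3) by the quasi-likelihood test over all 8 libraries with genotype as the factor, on windows and loci that reached 10 counts in 2 or more libraries. TMM was used, except for rDNA regions, where the total count was the library size. Features were called at an adjusted p under 0.01 (Benjamini-Hochberg over windows and loci) and a 2-fold difference. Fold changes carry the SE of the fit. An exact permutation test of 2 libraries against 2 cannot give a two-sided p under 0.333, so the shares of libraries were not tested. The scripts were tested on simulated data. The members, gene lists and tests were chosen with earlier results of these data known. Named windows were the 5 clusters (called windows within 300 bp) with the largest rise and the 5 with the largest fall at 21, 22 and 24 nt whose genotypes did not overlap, and the largest of each at other lengths and in the organelles. Named loci were *HOT3*, the *TAS* genes, *MIR390a*, *MIR390b* and the 10 *MIR* genes with the largest changes in each direction, and other names were chosen after their values were seen. Alternatives were other scalings, filters, limits of a call, DESeq2 1.42.0, a replicate block, fewer libraries and 1 rDNA copy. Leaving out nuclear copies of organelle sequence and the chromosome 3 stretch was chosen after seeing the data. Samples with the same replicate number did not deviate together.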

Additional observations from a re-analysis of the deposited data

How the results depend on the processing

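Of the values of single named loci and windows under settings that kept all libraries of both genotypes, 490 kept direction and call, 71 lost the call, 10 gained it and 11 turned. The percentage of tested nuclear windows called higher at 21 nt, 1.69, was 0.955 with the length total as library size, 0.734 with the total of all lengths, 4.82 with at least 30 counts (45 windows), 0.0583 without a filter (125) and 4.24 with adjusted p under 0.05, and the percentage lower, 4.26, was 6.63 with the total of all lengths, 20.3 with at least 30 counts (190 windows), 0.1 without a filter (215) and 7.12 with adjusted p under 0.05. At 22 nt 1.14% higher became 0.499, 0.384, 2.73 (44 windows) and 2.75 under length total, all lengths, 30 counts and adjusted p, and 1.83% lower became 3.34, 5.08 and 3.41 under length total, all lengths and adjusted p, 10.3 with at least 30 counts, 0.0763 without a filter (187) and 1.11 without the chromosome 3 stretch. Without a filter 0.0412 were higher (101). At 24 nt 0.32% higher became 0.139, 0.0656, 0.552 with nuclear counts as library size (143 windows, against 107 lower, so that more were higher than lower), 0.836 with at least 30 counts (67), 0.211 with the 4 libraries alone, 0.083 without a filter (261) and 0.879 with adjusted p under 0.05, and 0.486% lower became 0.918, 1.56, 2.13 with at least 30 counts (171), 0.088 without a filter (277) and 1.12. The percentage of windows lower in *hot3-3* that went the opposite way was 73.5 at 22 nt and 51.6 at 24 nt with the total of all lengths, 89.7 at 24 nt with nuclear counts, and 54.0 to 61.5 at 24 nt leaving out 1 library. In rDNA at 21 nt, TMM, nuclear counts and DESeq2's size factors gave -0.998, -0.85 and -0.94 for the 5′ ETS, -0.54, -0.39 and -0.48 for the boundary, 0.11, 0.26 and 0.17 for the 3′ part of 18S, 1.23, 1.38 and 1.29 for the rest of 18S, 1.199, 1.345 and 1.26 for 25S, and 0.38, 0.52 and 0.44 for the 3′ end of 25S. In the chromosome 3 copy alone the 3′ end of 25S had 0.26 and ITS2 -0.82. *TAS1C* was 0.0698 with nuclear counts, *MIR390a* was -0.0639 and -0.27 and *MIR390b* -0.20 and -0.41 with the length total and the total of all lengths, and *MIR390b* was -0.0728 with at least 30 counts and -0.17 to 0.35 leaving out 1 library. Leaving out 1 library gave 0.724% to 1.6% higher and 3.02% to 4.12% lower at 21 nt, 0.582% to 1.14% and 1.25% to 1.86% at 22 nt, and 0.143% to 0.311% and 0.306% to 0.492% at 24 nt. The lowest count at 21 nt, 27 higher, came without *hot3-2* replicate 2. With the replicate block 1.15% were higher and 3.43% lower at 21 nt, 0.972% and 1.61% at 22 nt, and 0.297% and 0.471% at 24 nt, and the numbers did not pair the samples. *TAS1A* reached the 2-fold limit (-1.01) without *hot3-2* replicate 2. The causes were not tested.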
